A study of Mus musculus with 8 samples.

Results

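The interferon regulatory factor (IRF) family was followed in CD4 T cells through its members Irf1, Irf2, Irf3, Irf4, Irf5, Irf7, Irf8 and Irf9. They are 8 of the 23284 gene symbols in the expression tables, chosen by name, and each was listed on 1 line per library with a status of OK. The series measured polyadenylated RNA by sequencing in naive CD4 T cells and in effector T helper (Th) cells, in a study that looked for surface markers of the effector cells that become memory cells. There were 4 groups of 2 libraries, 8 in all, and all cells came from DO11.10 transgenic mice, whose T cells carry one T cell receptor against an ovalbumin peptide.

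Naive cells were sorted from spleen as CD4+ with low CD44 and high CD62L, and no culture was given for them. Th1 cells were the same sorted population grown for 6 days with IL-12 at 100 U/ml, IL-2 at 30 U/ml and an antibody to IL-4 at 1 µg/ml. Th2 cells were grown for 6 days with IL-4 at 100 U/ml, IL-2 at 30 U/ml and an antibody to interferon-γ at 10 µg/ml. Th17 cells were grown for 6 days with IL-6, IL-1β and IL-23 at 10 ng/ml each and antibodies to IL-4 and interferon-γ at 10 µg/ml each. The cultures were set up with ovalbumin peptide and irradiated spleen cells that had been depleted of T cells, so a naive library and an effector library differ by activation, culture and companion cells together. Each library is a bulk mean, in which fewer cells of a type and less RNA per cell cannot be told apart.

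IRFs are transcription factors that share a DNA-binding domain reading GAAA repeats in interferon-responsive promoters. IRF3, IRF5 and IRF7 are held in the cytoplasm until sensors of microbial nucleic acid and their kinases activate them, IRF9 binds DNA for the complex that forms below the type I interferon receptor, IRF1 and IRF2 bind the same elements as activator and mostly repressor, and IRF4 and IRF8 bind with ETS or AP-1 partners in lymphoid and myeloid cells. In T helper cells, IRF4 is induced by T cell receptor signals and is needed for Th2 and Th17 cytokine programmes, while IRF1 is a target of interferon-γ.

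The promoter letters of 4 members are shown first. They come from RefSeq starts on GRCm38.p6, run 5′ to 3′ on the gene's strand, and carry in capitals the matches to 4 motifs searched on both strands. These were the interferon-stimulated response element (GAAA, any 2 bases, GAAA), the ETS-IRF element (GGAA, any base, TGAAA), the interferon-γ-activated site bound by STAT proteins (TTC, any 3 bases, GAA) and the AP-1 site (TGA, any base, TCA). Irf1 and Irf8 are printed because they differed most between Th1 and the other effector cells, Irf2 because it held 3 of the 4 motifs, and Irf4 because it had the largest rise.
Irf1, chr11:53769764-53770013, + strand, the 250 bases before the start: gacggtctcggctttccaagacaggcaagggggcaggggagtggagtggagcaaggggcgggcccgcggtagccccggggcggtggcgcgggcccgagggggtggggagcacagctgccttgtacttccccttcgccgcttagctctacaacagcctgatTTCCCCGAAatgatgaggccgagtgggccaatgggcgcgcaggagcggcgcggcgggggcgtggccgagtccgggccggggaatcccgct
Irf8, chr8:120736108-120736357, + strand, the 250 bases before the start: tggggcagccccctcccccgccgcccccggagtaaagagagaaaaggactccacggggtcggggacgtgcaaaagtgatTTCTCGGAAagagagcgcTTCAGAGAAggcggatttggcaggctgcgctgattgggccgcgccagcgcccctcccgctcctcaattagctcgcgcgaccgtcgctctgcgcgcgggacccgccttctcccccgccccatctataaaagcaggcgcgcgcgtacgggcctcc
Irf2, chr8:46739495-46739559, + strand, the 65 bases around the matches: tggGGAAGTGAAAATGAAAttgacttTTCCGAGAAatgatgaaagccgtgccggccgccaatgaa
Irf4, chr13:30748983-30749225, + strand, 243 bases before its first exon: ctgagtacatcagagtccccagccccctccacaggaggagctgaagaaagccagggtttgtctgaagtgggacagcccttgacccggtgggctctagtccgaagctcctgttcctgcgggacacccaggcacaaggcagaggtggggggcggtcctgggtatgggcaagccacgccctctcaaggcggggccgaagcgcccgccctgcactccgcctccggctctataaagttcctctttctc

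All 8 members had a promoter window of 300 bases (250 before and 50 after a start) in that set, 11 windows in all. The interferon-γ-activated site stood in 3 of the 11 member windows, those of Irf1 (90 bases before the start), Irf2 (224 bases before) and Irf8 (171 and 153 bases before), and in 8.30% of all 32851 promoter windows. The interferon-stimulated response element and the ETS-IRF element were found only in the Irf2 window, where they overlap each other, against 3.44% and 0.731% of all promoter windows. The AP-1 site stood in none of the 11 windows and in 7.81% of all windows. The windows of Irf3, Irf4, Irf5, Irf7 and Irf9 held no match to the 4 motifs, which says only that these letters were absent there. The first bases printed for Irf2 also lie in an exon of Gm16675, an antisense long non-coding RNA.

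Levels are given as FPKM, the fragments of a gene scaled by transcript length and by the mapped fragments of its library, which can be set side by side between genes because it is per length. The depth implied by the confidence bounds in the tables was 14463538 to 21058108 fragments per library, lowest in the 2 naive libraries, and it covers counting error only. Lineage genes followed the labels: Ifng was at 614 to 802 FPKM in Th1 and at most 2.19 elsewhere, Il13 at 143 to 150 in Th2, and Il17a at 335 to 347 in Th17. For 18 B cell, myeloid and dendritic cell markers, the naive libraries summed to 22.4 and 20.0 FPKM, the Th1 libraries to 12.7 and 12.5, the Th2 libraries to 38.5 and 34.6 and the Th17 libraries to 41.1 and 40.7. By group mean, 12, 14, 10 and 9 of the 18 were under 1 FPKM in that order. Cd8b1 was at 90.5 and 52.8 FPKM in the naive libraries while Cd8a was at 2.94 and 1.77. Naive replicate 2 had higher levels than naive replicate 1 for all 12 measured interferon-stimulated and class I presentation genes, with a median log2 difference of 0.66, against 50.8% of all genes tested. Mpo and Elane, granule genes of myeloid precursors, were at 2.46 to 4.89 FPKM in replicate 1 of each effector group and at most 0.11 in replicate 2. Other genes of that marker list went differently. S100a8 and S100a9 were at most 0.66 FPKM in every library. Cxcr2 was at 81.2 and 82.4 FPKM in the Th1 libraries, 9.16 and 10.2 in Th2, 6.56 and 5.31 in Th17 and 0 in naive.

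The family as a whole changed its make-up between naive and effector cells. Summed over the 8 genes, naive cells had 477 ± 55.7 FPKM, Th1 cells 407 ± 14, Th2 cells 301 ± 1.84 and Th17 cells 291 ± 1.90 (SD, n = 2 each). Irf1 supplied 46.3% ± 1.8 of that sum in naive cells but 20.2% ± 1.5 in Th1 cells, 8.40% ± 0.046 in Th2 cells and 6.80% ± 0.39 in Th17 cells. Irf4 supplied 0.39% ± 0.033 of the naive sum, 27.8% ± 3.5 of the Th1 sum, 61.1% ± 1.1 of the Th2 sum and 56.6% ± 0.51 of the Th17 sum. Irf8 took 26.1% ± 1.1 of the sum in Th1 and 5.57% ± 0.47 in Th2. Naive cells were thus led by Irf1, Th2 and Th17 cells by Irf4, and in Th1 cells Irf4, Irf8 and Irf1 had shares of similar size.

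**Figure D1:**
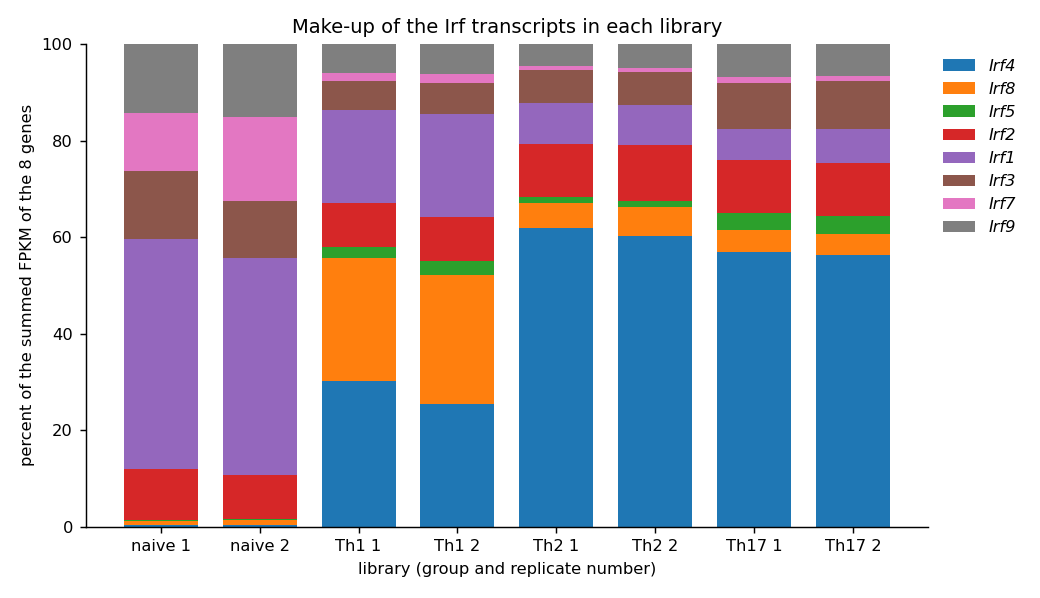
Share of the summed FPKM of the 8 IRF genes (stacked bars, percent, 1 bar per library) in naive, Th1, Th2 and Th17 cells. Irf1 holds 45.0% and 47.6% of the 2 naive bars and Irf4 56.2% to 61.8% of the 4 Th2 and Th17 bars.

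Against naive cells, every member passed the test in each of the 3 effector groups: Irf4, Irf5 and Irf8 rose and Irf1, Irf2, Irf3, Irf7 and Irf9 fell. In Th1 cells 3 members were higher and 5 lower, where 67.3% of the 11198 genes tested were called in either direction (33.8% higher, 33.5% lower). In Th2 cells the counts were again 3 and 5, with 70.5% of all genes called (31.8% higher, 38.7% lower), and in Th17 cells 3 and 5 with 67.3% called (37.5% higher, 29.8% lower). Because most genes were called, the sizes tell more than the counts. The median absolute log2 difference over the members was 1.79 for Th1, 2.04 for Th2 and 1.95 for Th17, beside 0.63, 0.68 and 0.63 over all genes tested. The 3 comparisons share the same 2 naive libraries, so their directions are not independent of each other. Differences are on the log2(FPKM + 1) scale, which understates changes of low genes, and adjusted p-values are from limma over all genes tested.

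**Figure D2:**
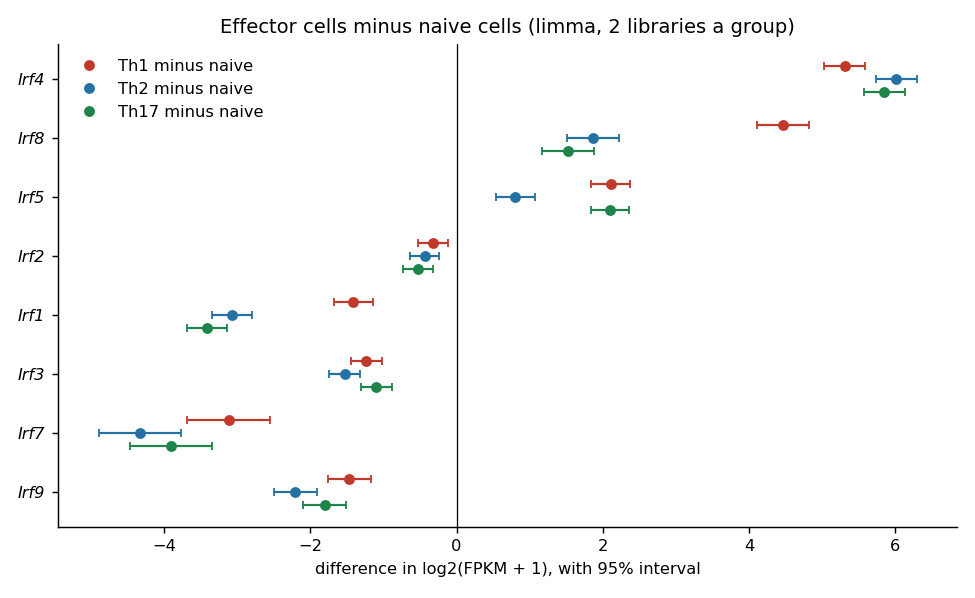
Log2 difference in FPKM + 1 from naive cells for each IRF gene in Th1, Th2 and Th17 (points, with 95% confidence intervals from limma, line at 0). Irf4, Irf5 and Irf8 lie above 0 and the other 5 genes below it in all 3 effector groups.

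Irf3, a constitutively made factor activated below innate sensors (chr7:44997648-45002848, mm10), stood at 61.7 and 60.5 FPKM before activation, against 24.1 and 26.9 (Th1), 20.4 and 20.7 (Th2) and 27.2 and 28.8 (Th17). Every effector library lay below both naive libraries. It fell in all, with log2 differences from naive of -1.23 for Th1 (SE 0.090, adjusted p = 2.56e-05), -1.53 for Th2 (adjusted p = 7.6e-06) and -1.10 for Th17 (adjusted p = 4e-05) by limma, and naive means were 2.18 to 2.98 times the effector means. Among effector cells, Irf3 was 0.43 higher in Th17 than in Th2 (adjusted p = 0.0091). That call was lost under median scaling (0.22, adjusted p = 0.0644) and without Th17 replicate 2 (0.39, adjusted p = 0.0576). The excess of Th1 over Th2, 0.30 (adjusted p = 0.0341), was lost under 8 of the 18 other settings, among them leaving out Th1 replicate 2 or any Th2 or Th17 library (adjusted p up to 0.183). Th1 and Th17 differed by -0.13, with a 95% interval from -0.35 to 0.08.

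Irf7, the interferon-inducible partner of IRF3 that amplifies type I interferon production (chr7:141263183-141266424), had the deepest fall of the family. The naive libraries had 52.5 and 89.5 FPKM, the Th1 libraries 6.29 and 7.83, the Th2 libraries 2.60 and 2.32 and the Th17 libraries 3.89 and 3.42. The naive libraries stood far apart, by 0.76 on the log2 scale, a gap wider than that of 97.4% of genes tested, yet the lower of them was above every effector library. Irf7 fell, with log2 differences from naive of -3.12 for Th1 (SE 0.24, adjusted p = 3.25e-05), -4.33 for Th2 (adjusted p = 5.42e-06) and -3.90 for Th17 (adjusted p = 9.41e-06) by limma, so that naive means were 10.1, 28.8 and 19.4 times as high. Naive replicate 2, the higher library, is the one with the raised interferon-stimulated genes, and their part in the Irf7 level was not tested. Without it the differences were -2.74, -3.95 and -3.52 for Th1, Th2 and Th17, and each passed the test. Th1 cells kept more Irf7 than Th2 cells, by 1.21 (adjusted p = 0.0065). Th1 exceeded Th17 by 0.79, which did not pass (adjusted p = 0.0518, 95% interval 0.22 to 1.35). It passed under 8 of the 18 other settings. Among them were the replicate number as a block (adjusted p = 0.0403), median scaling (0.86, adjusted p = 0.0419) and quantile normalization (1.01, adjusted p = 0.0282). Th17 and Th2 differed by 0.43 (interval -0.14 to 0.99).

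Irf5, a factor known mainly from macrophages and B cells downstream of Toll-like receptors (chr6:29526625-29537320), rose from a low level. Naive libraries held 1.56 and 1.81 FPKM, Th1 libraries 9.60 and 11.6, Th2 libraries 3.66 and 3.72 and Th17 libraries 10.4 and 10.6. Th1 and Th17 libraries overlapped each other and lay above the Th2 libraries, which lay above the naive ones. The rise was 2.11 for Th1 (SE 0.11, adjusted p = 5.44e-06), 0.81 for Th2 (adjusted p = 0.000532) and 2.10 for Th17 (adjusted p = 4.79e-06) by limma, or 6.30, 2.19 and 6.22 times the naive mean. Irf5 was 1.3 higher in Th1 than in Th2 (adjusted p = 0.000157) and 1.29 higher in Th17 than in Th2 (adjusted p = 0.000258). The Th1 and Th17 means differed by 0.01, with an interval from -0.25 to 0.27. Of the exon bases of Irf5 in the GENCODE vM21 annotation, 14.15% are shared with Tnpo3 on the opposite strand, so part of its signal is uncertain where strand was not used, while Irf1, Irf3, Irf7 and Irf9 share 1.192% to 3.395% with a neighbour. The B cell markers summed to 20.2 and 19.6 FPKM in the Th17 libraries and to 3.42 and 2.51 in the Th1 libraries, the lowest, and their part in the Irf5 level was not tested.

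Irf9, the DNA-binding subunit of the complex that answers type I interferon (chr14:55603985-55610030), measured 62.7 and 78.7 FPKM in naive cells, 24.1 and 25.5 in the Th1 libraries, 13.8 and 15.1 in the Th2 libraries, and 19.7 and 19.2 with Th17 conditions. The naive libraries were the highest and the Th2 libraries the lowest, with no overlap between groups. Irf9 fell, with log2 differences from naive of -1.46 for Th1 (SE 0.12, adjusted p = 5.38e-05), -2.21 for Th2 (adjusted p = 5.99e-06) and -1.80 for Th17 (adjusted p = 1.71e-05) by limma. It was 0.74 higher in Th1 than in Th2 (adjusted p = 0.00335). The Th17 excess over Th2, 0.40 (adjusted p = 0.0358), was lost under 8 of the 18 other settings. Among them were leaving out any effector library and median scaling (0.20, adjusted p = 0.254). The Th1 excess over Th17, 0.34 (adjusted p = 0.0948), passed under 3 of the 18, among them the replicate block (adjusted p = 0.0456).

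Irf1, the activator induced by interferon-γ (chr11:53770014-53778374), was the most abundant member of naive cells. Its naive libraries had 208 and 233 FPKM, its Th1 libraries 75.9 and 88.8, its Th2 libraries 25.1 and 25.5 and its Th17 libraries 18.9 and 20.7. The groups formed 4 separate steps, with Th1 between naive and the other effector cells. Irf1 fell, with log2 differences from naive of -1.41 for Th1 (SE 0.11, adjusted p = 4.21e-05), -3.07 for Th2 (adjusted p = 8.96e-07) and -3.41 for Th17 (adjusted p = 6.28e-07) by limma, so that naive cells had 2.68, 8.71 and 11.1 times the effector means. Th1 cells had 3.25 times the Th2 level (log2 difference 1.66, adjusted p = 6.17e-05) and 4.16 times the Th17 level (2.00, adjusted p = 4.92e-05). The small Th17 deficit against Th2, -0.34 (adjusted p = 0.0474), was lost under 9 of the 18 other settings, among them leaving out any naive, Th2 or Th17 library (adjusted p up to 0.181).

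Irf2, the competitor of IRF1 at the same elements (chr8:46739745-46847458), changed least. It went from 46.2 and 47.0 FPKM in naive cells to 35.9 and 38.3 (Th1), 33.3 and 35.0 (Th2) and 31.7 and 32.4 (Th17). The naive libraries were the highest, and the effector libraries formed a narrow band. Irf2 fell, with log2 differences from naive of -0.32 for Th1 (SE 0.084, adjusted p = 0.0123), -0.44 for Th2 (adjusted p = 0.00283) and -0.53 for Th17 (adjusted p = 0.0012) by limma. The Th1 call was lost without Th1 replicate 1 (-0.28, adjusted p = 0.0747). No pair of effector groups passed with FPKM as given. Th1 and Th2 differed by 0.12 (95% interval -0.08 to 0.32) and Th17 and Th2 by -0.09 (interval -0.29 to 0.11). Between Th1 and Th17 the difference was 0.21 (adjusted p = 0.126 by limma). With median scaling, Th1 exceeded Th17 by 0.30 (adjusted p = 0.0357 by limma). Th17 was then lower than Th2 (-0.30, adjusted p = 0.025), as it was with quantile normalization (-0.25, adjusted p = 0.0382). With Irf1 falling and Irf2 nearly level, the FPKM ratio of Irf1 to Irf2 went from 4.51 and 4.95 (naive) to 2.12 and 2.32 (Th1), 0.75 and 0.73 (Th2) and 0.60 and 0.64 (Th17).

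Irf4, the T cell receptor-induced member (chr13:30749258-30766927), rose more than any other. Naive libraries had 1.62 and 2.15 FPKM, Th1 libraries 120.0 and 106, Th2 libraries 186 and 183 and Th17 libraries 165 and 164. All effector libraries lay far above the naive libraries, and the Th1 libraries were the lowest of them. The rise was 5.31 for Th1 (SE 0.12, adjusted p = 2.07e-07), 6.01 for Th2 (adjusted p = 1.33e-07) and 5.85 for Th17 (adjusted p = 1.65e-07) by limma, or 59.9, 97.8 and 87.5 times the naive mean, which rested on 166 and 219 implied fragments. Irf4 was 0.70 lower in Th1 than in Th2 (adjusted p = 0.00345). It was also 0.54 lower in Th1 than in Th17 (adjusted p = 0.0163), a call lost without Th1 replicate 2 or either Th17 library (adjusted p 0.0742 to 0.0994). Th17 and Th2 differed by -0.16 (interval -0.44 to 0.12).

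Irf8, the closest relative of IRF4 (chr8:120736376-120756692), was highest in Th1 cells. The naive libraries had 3.21 and 4.62 FPKM, the Th1 libraries 101 and 112, the Th2 libraries 15.7 and 17.9 and both Th17 libraries 12.95. The Th1 libraries stood apart from all others, and the Th2 and Th17 libraries lay above the naive ones. The rise was 4.46 for Th1 (SE 0.15, adjusted p = 7.18e-07), 1.87 for Th2 (adjusted p = 3.47e-05) and 1.52 for Th17 (adjusted p = 0.000105) by limma, or 27.2, 4.29 and 3.31 times the naive mean. Th1 cells had 6.34 times the Th2 level (log2 difference 2.59, adjusted p = 3.04e-05) and 8.21 times the Th17 level (2.94, adjusted p = 3.41e-05). Th17 was -0.35 from Th2 (adjusted p = 0.102, interval -0.70 to 0.01). This difference passed under 5 of the 18 other settings, among them the replicate block (adjusted p = 0.0364), median scaling and quantile normalization. B cells and dendritic cells also make Irf8. The summed level of 18 B cell, myeloid and dendritic cell markers was lowest in the Th1 libraries. The 6 dendritic cell markers among them summed to 0.73 and 0.82 FPKM in naive cells, 1.36 and 1.24 in the Th1 libraries, 2.82 and 2.73 in the Th2 libraries and 3.90 and 3.93 in the Th17 libraries. Of these markers, Xcr1 was at 0.84 and 0.90 FPKM in the Th1 libraries and at most 0.12 in the others, and Siglech and Clec9a were at most 0.05 in every library. The part of such cells in the Irf8 level was not tested. The FPKM ratio of Irf4 to Irf8 was 0.50 and 0.46 (naive), 1.19 and 0.94 (Th1), 11.8 and 10.2 (Th2) and 12.7 in both Th17 libraries.

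**Figure D3:**
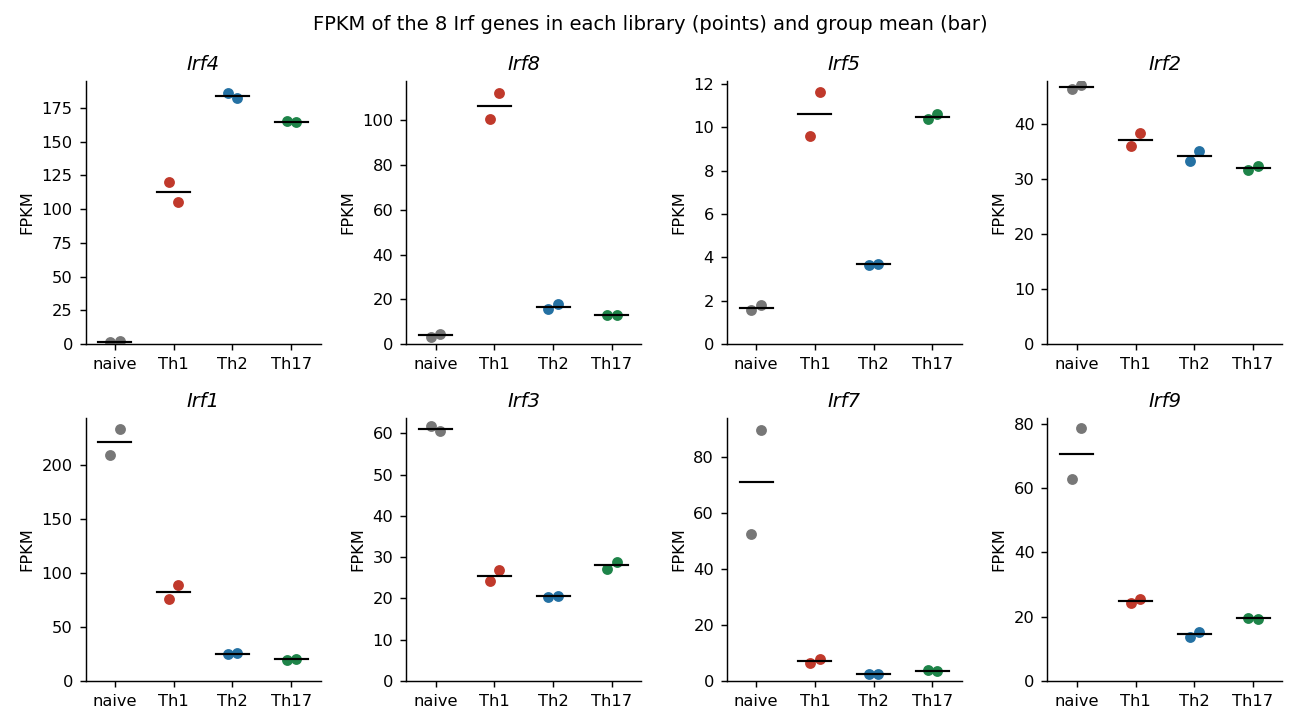
FPKM of each IRF gene in each of the 8 libraries (points on a linear axis from 0, with its own scale for each gene, and horizontal bars for group means) in naive, Th1, Th2 and Th17 cells. Irf4 climbs from 1.62 and 2.15 to above 100 FPKM in every effector library, Irf8 reaches 101 and 112 in Th1 alone, and Irf7 drops from 52.5 and 89.5 to 7.83 or less.

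Between effector subsets the family separated Th1 from Th2 most. Against Th2, 6 members were higher in Th1 (Irf1, Irf3, Irf5, Irf7, Irf8 and Irf9), Irf4 was lower and Irf2 did not pass, where 44.3% of all genes were called (27.4% higher, 16.9% lower). The median absolute log2 difference of the members was 0.98, beside 0.34 over all genes. Th17 against Th2 gave 3 higher (Irf3, Irf5, Irf9) and 1 lower (Irf1), with 43.6% of genes called (31.7% higher, 12.0% lower) and medians of 0.38 and 0.34, so that the members moved about as much as other genes. Th1 against Th17 gave 2 higher (Irf1, Irf8) and 1 lower (Irf4), with 25.1% of genes called (9.17% higher, 16.0% lower) and medians of 0.44 and 0.22. With the replicate number as a block, 2 members were lower in Th17 than in Th2 (Irf1, Irf8), and 4 were higher in Th1 than in Th17 (Irf1, Irf7, Irf8, Irf9). All tested genes were shifted by a median of 0.18 in Th17 against Th2, 0.11 in Th1 against Th2 and -0.11 in Th2 against naive. Dividing each library by its median ratio, which removes this shift, changed the split of all calls for Th17 against Th2 from 3546 higher and 1339 lower to 2153 and 2175, and for Th1 against Th2 from 3065 and 1896 to 2399 and 2359. For Th1 against Th17 it went from 1027 and 1788 to 1344 and 1393. Relative to that median, Irf5 (1.11) was the one member that passed as higher in Th17 than in Th2, with Irf3 (0.22), Irf7 (0.27) and Irf9 (0.20) not passing, while Irf1 (-0.55), Irf2 (-0.30), Irf4 (-0.37) and Irf8 (-0.55) passed as lower. In Th1 against Th2 the call of Irf3 was lost (0.18, adjusted p = 0.107 by limma).

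**Figure D4:**
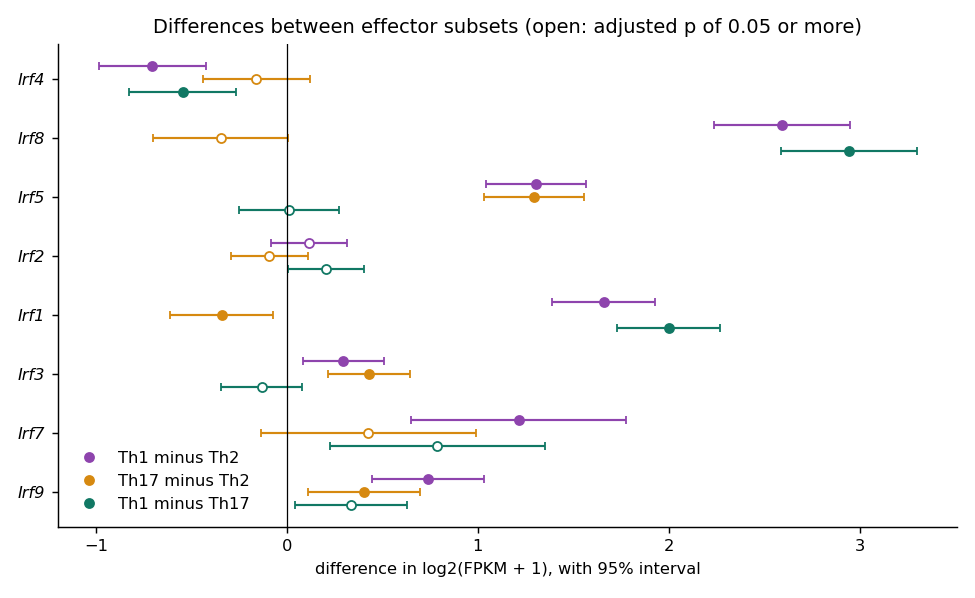
Log2 difference in FPKM + 1 for each IRF gene between effector subsets (Th1 against Th2, Th17 against Th2 and Th1 against Th17, points with 95% confidence intervals from limma, open where the adjusted p is 0.05 or more). Irf8 and Irf1 lie far above 0 in both comparisons of Th1, by 2.59 and 1.66 against Th2, and Irf4 lies below 0 in both.

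The pathway around the family was read from 6 lists of genes. Of 17 activators of IRF3, IRF5 and IRF7, 13 were tested, and 6 fell and 4 rose in Th1, 10 fell and 3 rose in Th2, and 6 fell and 3 rose in Th17. The number that fell in Th17 ran from 4 to 10 over the 18 other settings, with 10 under quantile normalization. Their median log2 differences from naive were -0.03, -0.60 and -0.27, beside -0.01, -0.11 and 0.08 over all genes. Among all genes tested, 67.3%, 70.5% and 67.3% were called in Th1, Th2 and Th17, and 33.5%, 38.7% and 29.8% fell. Ikbke, one of the kinases that phosphorylate IRF3 and IRF7, fell from 140.4 ± 17.6 FPKM (SD, n = 2) in naive cells to means of 36.1 ± 4.5 for Th1, 23.1 ± 0.91 for Th2 and 37.6 ± 3.8 for Th17. Its relative Tbk1 fell less, from 39.7 to 25.2, 31.7 and 24.0 FPKM. Ddx58, the cytoplasmic RNA sensor RIG-I, fell from 36.0 to 8.91, 8.42 and 10.2. The sensor Ifih1 fell from 5.38 to 1.97, 1.13 and 3.31, whereas Traf6, an adaptor ligase below Toll-like receptors, rose from 13.2 to 20.8, 34.9 and 24.3.

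Of 8 genes for interferon receptors and their signalling proteins, 4 fell and 1 rose in Th1. In Th2, 5 fell and 2 rose, and in Th17, 3 fell and 1 rose. Of all genes tested, 67.3%, 70.5% and 67.3% were called in Th1, Th2 and Th17. Median log2 differences of the list were -0.36, -0.73 and -0.19, beside -0.01, -0.11 and 0.08 over all genes. The number that rose was 1 in Th2 without naive replicate 1 or Th2 replicate 2, and 2 in Th17 with the replicate block or without naive replicate 2. The interferon-γ receptor chains diverged in Th1 cells. Ifngr1, the ligand-binding chain, was at 62.6 ± 7.8 FPKM in naive and 239 ± 0.91 in Th1, a rise of 1.92 (adjusted p = 2.24e-05 by limma), whereas Ifngr2, the signalling chain, went from 39.5 ± 2.4 to 1.37 ± 0.25, a difference of -4.10 (adjusted p = 3.42e-07). Jak2, a kinase of the interferon-γ receptor, rose from 23.0 to 72.4 in Th2 and 48.1 in Th17 and was at 20.9 in Th1. Ifnar1, a chain of the type I receptor, fell from 29.4 to 9.17, 9.77 and 10.8 FPKM in Th1, Th2 and Th17. Stat2, whose protein binds IRF9, did not pass in any effector group (26.2 in naive against 21.2, 25.7 and 26.9).

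Interferon-stimulated and class I presentation genes included 12 tested of 14. In Th2 cells all 12 fell and in Th17 cells 10 fell, with median log2 differences from naive of -2.38 and -1.79. In Th1 cells 6 fell and 2 rose, with a median of -0.57. Among all genes tested, 38.7%, 29.8% and 33.5% fell in Th2, Th17 and Th1, with medians of -0.11, 0.08 and -0.01. In Th1, 33.8% of all genes rose. With the replicate block 7 fell and 3 rose in Th1, and over all 18 other settings from 4 to 8 fell and from 0 to 3 rose, with 0 rising without Th1 replicate 2 and 1 without Th1 replicate 1, naive replicate 1 or either Th17 library. Ifit2, an inhibitor of viral translation, fell from 21.5 ± 3.6 FPKM to 3.54 ± 0.18 (Th1), 0.50 ± 0.026 (Th2) and 2.03 ± 0.10 (Th17). Isg15, a ubiquitin-like interferon product, was at 23.6 and 40.4 in the naive libraries and at means of 6.16, 1.64 and 2.79 in Th1, Th2 and Th17. Ifit3, of the same family, went from 6.51 and 17.6 in the naive libraries to 0.12 or less as effector means. Nlrc5, the activator of class I genes, fell to 2.96 in Th2 and 12.7 in Th17 from 57.7 in naive, and was at 34.8 in Th1 (adjusted p = 0.0666 by limma). Gbp2, a guanylate-binding protein induced by interferon-γ, rose from 89.1 to 161 in Th1 and fell to 18.1 in Th2. Th1 exceeded Th2 in 9 of these 12 genes, where 27.4% of all genes were higher in Th1, and it exceeded Th17 in 7 of the 12, against 9.17% of all genes. The first count ran from 8 to 10 over the 18 other settings. The second ran from 2 to 8, with 8 under the replicate block, 4 without Th1 replicate 1, 2 without Th1 replicate 2, 2 without Th17 replicate 1 and 3 without Th17 replicate 2. Irf1, a known activator of several of them, was also highest in Th1 among effector cells, and its part in their levels was not tested. The Th2 and Th17 cultures held an antibody to interferon-γ and the Th1 cultures did not, and its part was not tested either. The naive values of this list carry the same difference between replicates as Irf7.

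**Figure D5:**
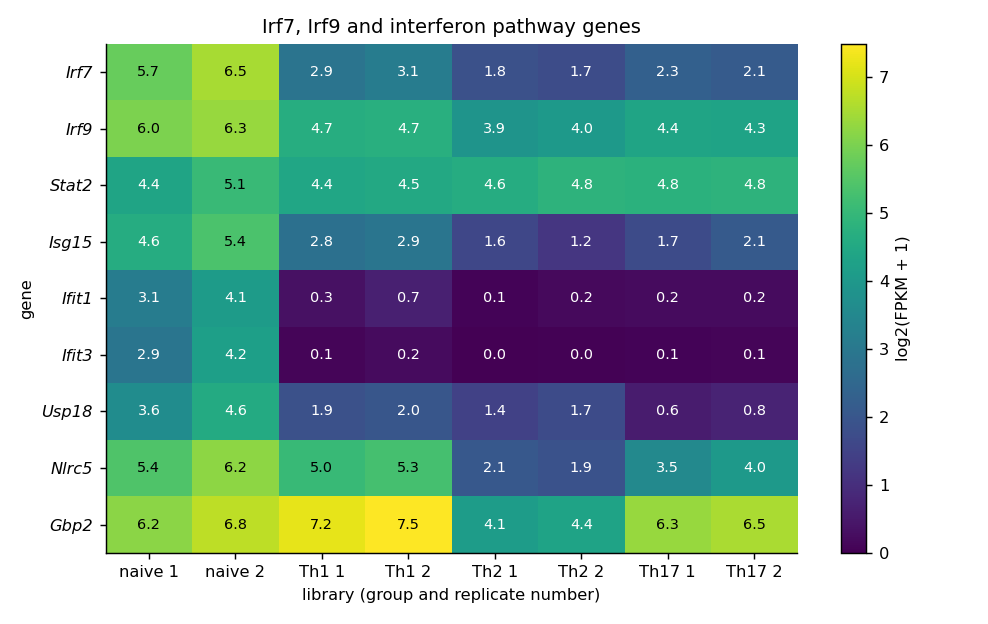
Heat map of log2(FPKM + 1), by colour and printed in each cell, for Irf7, Irf9 and 7 interferon pathway genes (1 line each) in the 8 libraries (1 column each). Naive 2 is higher than naive 1 in every line shown, and for Irf7, Irf9 and Isg15 both naive columns exceed every effector column.

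Partners of IRF4 and IRF8 on DNA were tested for 7 of 10. In Th1 cells 2 rose and 3 fell, in Th2 cells 2 and 4, and in Th17 cells 2 and 3. Of all genes tested, 67.3%, 70.5% and 67.3% were called in Th1, Th2 and Th17. Median log2 differences of the list were -0.17, -0.68 and -0.11, beside -0.01, -0.11 and 0.08 over all genes. With no filter on low values, all 10 were tested and 4 rose in Th17. Batf, the AP-1 factor that pairs with JUN proteins and IRF4, rose from 24.7 ± 1.6 FPKM to 41.2 ± 1.7 (Th1), 355 ± 1.5 (Th2) and 94.4 ± 6.5 (Th17). Its highest libraries were those of Th2, and Th1 against Th2 gave a log2 difference of -3.08 (adjusted p = 2.88e-06 by limma), in the same direction as Irf4. Batf3 was at 0.13 in naive and at 126, 60.5 and 255 in Th1, Th2 and Th17. Jun fell from 37.3 to 15.5 in Th2 and 7.04 in Th17 and was at 33.1 in Th1. Ikzf1, the zinc finger factor Ikaros, fell from 143 to 57.3, 40.9 and 56.4. Spi1, the ETS partner PU.1, was listed as Sfpi1 at 0.32 to 1.91 FPKM and lay under the minimum level for testing.

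Proteins that bind or modify IRFs gave 7 tested genes, of which 1 rose and 4 fell in Th1 and 1 rose and 3 fell in Th2 and in Th17. Of all genes tested, 67.3%, 70.5% and 67.3% were called in Th1, Th2 and Th17. Without either Th2 library, 2 rose in Th17. The gene that rose was Swap70, which belongs to a pair of IRF4-binding proteins with Def6, at 1.59 FPKM in naive and 20.4, 21.4 and 26.2 in Th1, Th2 and Th17. Def6 did not pass, at 77.1 in naive and 77.0 to 90.0 in effector cells. Trim21, a ubiquitin ligase for IRF proteins, fell from 29.5 to 9.82, 4.58 and 5.47, and Irf2bp1, a gene of an IRF2 corepressor, fell from 22.3 to 6.19, 6.64 and 7.35. Its relative Irf2bpl fell from 28.8 to 10.2, 12.8 and 11.5.

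The T helper genes known to need IRF4 were 8, all tested. In Th1 cells 5 rose and 1 fell, in Th2 cells 7 rose, and in Th17 cells 7 rose and 1 fell. Among all genes tested, 33.8%, 31.8% and 37.5% rose and 33.5%, 38.7% and 29.8% fell in Th1, Th2 and Th17. Median log2 differences of the list were 1.97, 3.49 and 2.05, beside -0.01, -0.11 and 0.08 over all genes. Prdm1, the gene of Blimp-1, rose from 2.03 ± 0.35 FPKM to 22.5 ± 3.8 (Th1), 13 ± 0.12 (Th2) and 3.14 ± 0.035 (Th17). Il10 rose from 0.04 to 40.9 in Th1 and 138 in Th2 and reached 0.86 in Th17. Il4 was listed at 0 in both naive libraries and at 113 in Th2. Il21 rose from 0.05 to 6.48, 20.6 and 41.7. Maf, a transcription factor for Il4 and Il10, rose from 1.97 to 24.0, 99.8 and 7.58. Il17a was at 341 ± 8.3 FPKM in Th17 and at most 0.71 in any other library.

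Likeness to each member was ranked by Pearson's r of log2 levels over the 8 libraries among all genes tested, as a description, since the libraries form 4 groups and many genes follow the same group order. For Irf4 the nearest was Hemk1 (r = 0.999), with means of 6.48 FPKM in naive and 84.0, 122 and 105 in Th1, Th2 and Th17, followed by Eif4ebp1 and Plekhb2. For Irf8 it was Tax1bp1 (r = 0.995), then Rufy4 and Cxcr6, a chemokine receptor gene at 0.47 in naive and 90.9, 7.84 and 6.55 in Th1, Th2 and Th17. For Irf5 it was Ptpn5 (r = 0.997), at 0.08 in naive and 8.37, 1.42 and 8.50. For Irf7 it was Traf3ip3 (r = 0.997), for Irf9 Ipcef1 (r = 0.997), for Irf1 Rapgef6 (r = 0.994), for Irf3 Iffo1 (r = 0.999) and for Irf2 Ttyh3 (r = 0.996). Within the family, Irf7 and Irf9 were the closest pair (r = 0.994), and Irf4 and Irf7 ran most against each other (r = -0.978).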

How the data were processed

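RNA was extracted with TRIzol and made into libraries for sequencing, 2 for each of the 4 groups. The labels name a stranded mRNA kit and the study's methods an unstranded one, so strand use was not settled. Per the labels, the authors aligned reads to mm10 with Bowtie 0.12.8 and TopHat 1.3.2 and computed FPKM with Cufflinks 2.0.2, and the deposited tables hold FPKM with its confidence bounds and a status. The annotation is not given in the sources used here. All columns of values were mapped to a sample (0 were left unused).

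Lines sharing a symbol were summed. Log2(FPKM + 1) was modelled with limma 3.58.1 in R 4.3.3 (4 group means over all 8 libraries, trend in the variance) for the 11198 genes with a mean of at least 1 FPKM. Tests were two-sided, with Benjamini-Hochberg adjustment over all genes tested and a call at adjusted p under 0.05. Python 3.11.15, pandas 2.3.3, numpy 2.4.6 and matplotlib 3.10.9 made the tables and plots. The 2 libraries of a group differ only by replicate number, so p-values measure the spread between these samples, which may be technical. Replicate numbers come from the labels. Differences between replicates 1 and 2 correlated by 0.138 to 0.294 over the 6 pairs of groups across 11198 genes, so the numbers may pair the libraries. What the numbers stand for is not stated. The main fit treated the libraries as unpaired, and a fit with the replicate block was run as an alternative. Fragments were implied from the width of the confidence bounds, on the assumption that it reflects counting error.

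The members and gene lists were chosen with earlier results of these data known. Genes named from a list are the 4 with the largest differences from naive among those called, and Stat2, Batf, Spi1, Tbk1 and Prdm1 in any case. Gbp2, Maf and Def6 were named after their values were seen. Trac and Ly6g, planned as markers, were not used here, and 1 gene of a planned list is not reported here. Alternatives tried were no filter, a pseudocount of 0.1, a minimum of 5 FPKM, median scaling, quantile normalization, only the 2 groups compared, no trend, the replicate block, the highest line per symbol, leaving out each library, and, chosen after seeing the data, only genes with status OK.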

Additional observations from a re-analysis of the deposited data

Results flagged for a closer look

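Each of 7 members responded by a different amount in different effector subsets, by the test of the difference itself (limma, adjusted over all genes tested). The widest gap per member, on the log2(FPKM + 1) scale, was for Irf8, 2.94 higher in Th1 than in Th17 (adjusted p = 3.41e-05), and for Irf1, 2.00 higher in Th1 than in Th17 (adjusted p = 4.92e-05). Between Th1 and Th2, Irf5 was 1.3 higher in Th1 (adjusted p = 0.000157), Irf7 1.21 higher (adjusted p = 0.0065) and Irf9 0.74 higher (adjusted p = 0.00335), while Irf4 differed the other way, by -0.70 (adjusted p = 0.00345). Irf3 was 0.43 higher in Th17 than in Th2 (adjusted p = 0.0091), and this call was lost without Th17 replicate 2 and under median scaling. Of all genes tested, 44.3% were called in Th1 against Th2, 43.6% in Th17 against Th2 and 25.1% in Th1 against Th17. A member was counted here if it was called in any of these 3 comparisons. The share of all genes called in any of the 3 was not computed and is at least 44.3%. Whether a count of 7 is unusual therefore cannot be judged. Each pair above was picked as the member's widest called difference between effector subsets. That the libraries of a pair did not overlap therefore adds no support. The cause of the members' differences was not tested.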

How the results depend on the processing

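Against naive cells, the members' direction held under all 18 alternatives, and the one call lost was that of Irf2 in Th1 without Th1 replicate 1. Among 864 single-member values, 805 kept direction and side of the threshold, 24 gained a call, 31 lost one and 4 changed sign. Those 4 were the Irf2 difference of Th1 from Th2 (-0.0011 with median scaling and -0.0045 with quantile normalization, 0.12 as reported) and the Irf5 difference of Th1 from Th17, which ran from -0.12 to 0.14 when 1 library was left out, below 0 without Th1 replicate 2 (-0.12) or Th17 replicate 1 (-0.0067). None of these 4 passed the test.

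For Th17 against Th2 the number of members called lower, 1 as reported, was 0 with no filter, 0 with a minimum of 5 FPKM, 0 with only the 2 groups compared, 4 with median scaling, 4 with quantile normalization and 2 with the replicate block, and it ran from 0 to 1 when 1 library was left out (0 without either Th2 or either Th17 library). The number called higher, 3 as reported, was 1 with median scaling and ran from 1 to 4 when 1 library was left out (1 without Th17 replicate 2). For Th1 against Th17 the number called higher, 2 as reported, was 4 with median scaling and 4 with the replicate block, and ran from 2 to 4 (4 without either naive library). The number called lower, 1 as reported, ran from 0 to 1 (0 without Th1 replicate 2 or either Th17 library). The replicate block passed Irf8 for Th17 against Th2 and Irf7 and Irf9 for Th1 against Th17, and changed no other member's call. Restricting to status OK, chosen after seeing the data, passed Irf7 for Th1 against Th17 (adjusted p = 0.0494 by limma). Where a left-out library leaves a group with 1 sample, that sample is assumed to vary like the other groups.

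With 2 libraries per group an SD is a rough estimate. Low members rest on few implied fragments, 166 and 219 for Irf4 and 67 and 77 for Irf5 in naive cells and 77 and 74 for Irf7 in Th2 cells, so their folds are less exact than those of abundant members.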

Other observations

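Between the 2 naive libraries, Ifit1 was at 7.77 and 16.1 FPKM, Ifit3 at 6.51 and 17.6 and Stat2 at 19.8 and 32.5, each higher in replicate 2. Among the members, Irf7 differed most between these libraries (0.76 on the log2 scale), then Irf8 (0.42) and Irf9 (0.32), while Irf3 (-0.03) and Irf2 (0.02) were nearly the same in both.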
